A study of Mus musculus with 12 samples.

Results

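*Ncam-1* WT and *Ncam-1* KO hearts were compared across Purkinje cells (PCs) and working ventricular myocytes (VMs) together, to find the transcripts that differ by genotype in both cell types. The comparison took all 12 libraries of the series, 6 KO and 6 WT, with cell type as a covariate and 1 genotype coefficient for both. Each genotype was represented by 3 libraries of PCs and 3 of VMs. KO cells came from mice homozygous for the null *Ncam-1* allele, a constitutive deletion in a line maintained on C57BL/6, crossed with *Cntn2*-EGFP. WT cells came from *Ncam-1* WT mice with the same reporter, a BAC transgene maintained on CD1, so that every group carried the reporter and a mixed background. Dissociated cells were incubated for 15 minutes with 50 nM TMRM, a mitochondrial dye that marks cardiomyocytes, and sorted into RFP+GFP+ cells (PCs) and RFP+GFP- cells (VMs). GFP follows the *Cntn2* regulatory sequence, so the PC gate itself reads a gene of the conduction program.

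NCAM-1 is an adhesion molecule of the immunoglobulin superfamily that carries polysialic acid and is best known from neurons and their synapses. In the adult heart it is largely restricted to the Purkinje fibre network, the specialised myocytes that spread the impulse through the ventricles by means of sodium channels and connexins. Working myocytes express little of it, and the genes that passed the adjustment are therefore given in PCs and VMs side by side. Some other genes are given as ranges or medians over both cell types. The labels do not state if a PC and a VM library of equal number share a heart. Libraries are numbered here by their titles, and another label numbers WT libraries 1, 2 and 3 as 1, 3 and 4, alike in PCs and VMs. If they did, the comparison rests on 3 hearts of each genotype rather than on 6 independent libraries, and nothing in the labels says that the libraries of a group came from separate animals.

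The libraries held between 13883400 and 42505700 counts on genes, of which between 1532390 and 6761360 lay outside the mitochondrial genome. Replicate 2 of WT PCs stood apart, with 63.9% of its read pairs not aligned against 18.8% to 24.7% in the others and 11847 genes detected against 13571 to 18129. Several, but not all, of the results that rest on it are given with and without it. The myocyte genes *Myh6* and *Tnnt2* had normalized counts of at least 46832 and 18074 in every library. *Cntn2* marked the PC gate in WT PCs (237, 451 and 533) and in KO PC replicate 3 (452), but was much lower in KO PC replicates 1 and 2 (38.67 and 49.2), and it was at most 8.99 in any VM library. In bulk libraries such as these, fewer cells of a type and less RNA per cell cannot be told apart. A normalized count is the count divided by the effective library size and rescaled to the geometric mean effective size of the 12 libraries.

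Of 11323 genes tested, 4 (0.0353%) had an adjusted p-value under 0.05 for the genotype effect shared by PCs and VMs by edgeR's quasi-likelihood test after Benjamini-Hochberg adjustment. They were *Ncam1* itself, *Plet1os* and *Scn4b*, which were lower in KO (3 genes, 0.0265% of those tested), and *Tmprss13*, which was higher (1 gene, 0.00883%). All 4 lie on chromosome 9, the other three within 5 Mb of *Ncam1*. Without WT PC replicate 2, an alternative fit with 11 libraries, 11 genes passed, among them all 4.

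*Ncam1* (ENSMUSG00000039542, GRCm38 chromosome 9, 49502136 to 49798925, minus strand), the targeted gene, had normalized counts of 36.2, 66.3 and 67.0 in WT PCs and 0, 1.26 and 0.668 in KO PCs. In VMs the 3 KO libraries held none, and the 3 WT libraries held 5.63, 0 and 6.66. The groups did not overlap in PCs, while in VMs 1 WT library was as empty as the KO libraries. Taking 3 counts per library as the floor of detection, KO PCs held at least 15.3-fold less *Ncam1*, and in VMs both genotypes were close to that floor, so that no fold is given. The common log2 fold change from edgeR's fit was -6.03 (SE 0.81, adjusted p = 0.00365), a value that depends on the prior count because the KO libraries are empty. Its exact stratified permutation p over all 400 relabellings within cell type was 0.02 (two-sided). *Ncam1* did not pass when the spread was estimated by limma voom with sample quality weights (adjusted p = 0.0871) or when KO PC replicate 3 was left out (edgeR's quasi-likelihood adjusted p = 0.052). It also missed the threshold as the mean of both effects over 4 group means (edgeR's quasi-likelihood adjusted p = 0.0905) and without both libraries of KO number 1 (0.0875), 2 (0.0734) or 3 (0.179) or of WT number 3 (0.0567).

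*Plet1os* (ENSMUSG00000101304, chromosome 9, 50488795 to 50507823, minus strand), a non-coding transcript on the strand opposite *Plet1*, showed the most complete loss. Its normalized counts were 67.6, 519 and 113 in WT PCs and 109, 86.6 and 111 in WT VMs. All 3 KO PC libraries and KO VM replicates 1 and 2 had 0 counts, and KO VM replicate 3 had 2 counts. Every WT library thus stood far above every KO library. Against the floor, *Plet1os* in KO was at least 63.2-fold lower for PCs and at least 26.5-fold lower for VMs (adjusted p = 1.10e-04 in edgeR's quasi-likelihood test of the common effect). The protein-coding partner *Plet1* on the opposite strand had at most 6 counts in any library. The high value of 519 belongs to WT PC replicate 2. Without that library the bound in PCs was 24.4-fold, and *Plet1os* still passed. It was lost in 1 of 30 alternative fits, limma voom with an estimated correlation between PC and VM libraries of a number (adjusted p = 0.267, and 0.388 for *Ncam1*).

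*Scn4b* (ENSMUSG00000046480, chromosome 9, 45138395 to 45154152, plus strand) encodes the beta-4 auxiliary subunit of voltage-gated sodium channels, which tunes channel gating. WT PCs had normalized counts of 104, 64.4 and 101, and KO PCs 21.1, 15.2 and 11.4. WT VMs had 173, 125 and 227, and KO VMs 11.3, 24.4 and 30.1. The highest KO library (30.1) lay below the lowest WT library (64.4), and both cell types showed the loss. The log2 fold change was -2.54 (SE 0.47) in PCs and -2.96 (SE 0.30) in VMs, and the common value was -2.77 (SE 0.27, edgeR's quasi-likelihood adjusted p = 1.10e-04). The difference between the cell types, PC minus VM, was 0.40 (SE 0.55), with an adjusted p of 0.998 in edgeR's quasi-likelihood test of the interaction. The exact permutation p was 0.005, the smallest that 400 relabellings can give, and 0.1 when PC and VM libraries of a number were moved together, the smallest that 20 relabellings can give. *Scn4b* passed in every one of the 30 alternative fits of the common effect (adjusted p at most 0.0124).

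*Tmprss13* (ENSMUSG00000037129, chromosome 9, 45319100 to 45347581, plus strand), a membrane-anchored serine protease, lies close to *Scn4b*, 4.15 Mb from *Ncam1*, and rose where *Scn4b* fell. Its normalized counts in WT were 1.31, 3.90 and 2.89 in PCs and 5.63, 4.71 and 1.48 in VMs. In KO they were 31.6, 31.6 and 40.8 in PCs and 43.8, 47.5 and 37.05 in VMs. The gene was thus near the floor in all 6 WT libraries and at a level of 31.6 to 47.5 in all 6 KO libraries. The common log2 fold change was 3.63 (SE 0.40, adjusted p = 3.13e-04 in edgeR's quasi-likelihood test), from 3.78 (SE 0.75) in PCs and 3.46 (SE 0.47) in VMs. *Tmprss13* passed in all 30 alternative fits too (adjusted p at most 0.0167). Its exact permutation p was 0.005, and 0.1 when PC and VM libraries of a number were moved together. Any gene whose groups are apart in both cell types in the same direction takes these values (70 genes, 0.618%). For *Scn4b* and *Tmprss13* they are therefore no separate support.

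**Figure D1:**
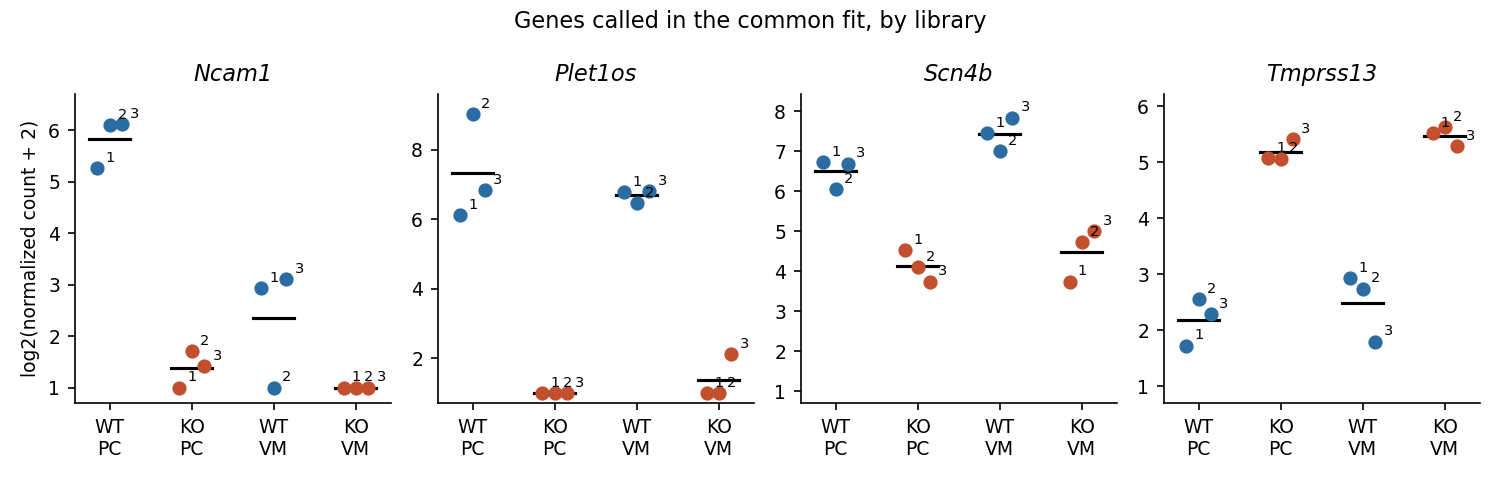
Values of the 4 genes called in the common fit, as log2(normalized count + 2) on the vertical axis, for the 3 libraries of each group on the horizontal axis; points are libraries with their replicate number, black lines are group means, blue is WT and red is KO. *Scn4b*, *Plet1os* and *Tmprss13* separate all 6 KO from all 6 WT libraries, and *Ncam1* does so in PCs only.

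The promoters of the called genes are shown because *Scn4b* and *Plet1os* fell in both cell types. RefSeq's table holds start sites of *Scn4b* and *Plet1os* on build GRCm38.p6, and for *Ncam1* and *Tmprss13* no sequence is shown. The 250 bases upstream of each RefSeq start are given 5′ to 3′ on the strand of the gene, chr9:45138374-45138623 (plus strand) for *Scn4b* and chr9:50504806-50505055 (minus strand) for *Plet1os*. RefSeq's starts lie downstream of those of the GENCODE genes used for positions above, so that the *Plet1os* window lies inside the longer GENCODE gene and the *Scn4b* window covers its GENCODE start. Capitals mark matches on either strand to 6 motifs, which do not overlap in these windows. The core promoter motifs searched were TATAAA for the TATA box, GGGCGG for the GC box and CCAAT for the box of that name. The factor motifs searched were CACGTG for the E-box, AGATAA for GATA factors and GGTGTG for T-box factors.
Scn4b: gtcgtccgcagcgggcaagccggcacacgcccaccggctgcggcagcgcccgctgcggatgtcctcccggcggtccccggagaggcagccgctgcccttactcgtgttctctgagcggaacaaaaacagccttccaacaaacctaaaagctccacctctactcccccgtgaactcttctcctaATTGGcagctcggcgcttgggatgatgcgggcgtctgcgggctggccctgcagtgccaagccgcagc
Plet1os: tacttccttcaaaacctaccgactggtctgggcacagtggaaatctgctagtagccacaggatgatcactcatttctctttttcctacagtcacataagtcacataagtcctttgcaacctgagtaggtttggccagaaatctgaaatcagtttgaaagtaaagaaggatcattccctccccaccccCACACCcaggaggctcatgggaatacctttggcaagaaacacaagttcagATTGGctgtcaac
Each window held 1 CCAAT box on the reverse strand (written ATTGG), as did 33.9% of the 32851 windows of the table on one strand or the other. *Plet1os* also held 1 T-box element on the reverse strand (16.3% of all windows), and neither held the TATA box, the GC box, the E-box or the GATA site. GC content was 66.0% for *Scn4b* and 45.6% for *Plet1os*.

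The next genes by p-value include neighbours of *Ncam1* that did not pass the adjustment. *Pts*, an enzyme of tetrahydrobiopterin synthesis 0.723 Mb from *Ncam1*, had normalized counts of 10.5, 29.04 and 14.03 in KO PCs against 56.7, 87.8 and 66.5 in WT PCs. In VMs it had 33.9, 25.7 and 45.2 in KO and 41.3, 85.6 and 154 in WT, so that the groups were apart in PCs and overlapped by 1 library in VMs. The common log2 fold change was -1.66 (SE 0.34, adjusted p = 0.159 in edgeR's quasi-likelihood test). *Dixdc1*, a DIX-domain protein of Wnt signalling 0.864 Mb away, ranged from 10.1 to 34.1 (median 15.0) in KO and from 29.2 to 115 (median 88.9) in WT libraries, and was apart in VMs (11.6 to 17.4 against 32.8 to 115). Its log2 fold change was -2.01 (SE 0.41, adjusted p = 0.159) in the common fit and -2.40 (SE 0.42, adjusted p = 0.0433) in VMs alone, both from edgeR's quasi-likelihood test. The VM call of *Dixdc1* was lost in limma voom, in 1 fit of all 12 libraries and without KO VM replicate 1, 2 or 3 or WT VM replicate 2 or 3. *Cryab*, the small heat shock protein alpha-B-crystallin at 0.952 Mb, had a median of 2894 in KO and 4769 in WT over both cell types, with overlapping ranges (log2 fold change -0.68, SE 0.18). In VMs its groups were apart, at 2834, 2817 and 2740 in KO and 6317, 4563 and 3117 in WT. In PCs they overlapped, at 2953, 2985 and 4654 in KO and 7547, 4079 and 4975 in WT. *Drd2*, a dopamine receptor 0.094 Mb from *Ncam1*, was seen in PCs only, at 5.27, 30.3 and 87.5 in KO and 99.4, 150 and 344 in WT, and at 3.85 or less in every VM library.

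Besides *Ncam1* itself, 67 genes closer than 5 Mb to it were tested and 11 (16.4%) had an unadjusted p-value under 0.05, 8 lower and 3 higher in KO. Over all genes tested that share was 4.95% (561 genes, 354 lower and 207 higher). Within 10 Mb it was 9.59% (14 of 146) and within 20 Mb 8.40% (20 of 238), while on the rest of chromosome 9 it was 4.13% (17 of 412) and on other chromosomes 4.90% (523 of 10672). The median log2 fold change of the 146 genes was -0.04. When the genome was divided into bins of 10 Mb, a division chosen after these values were seen, the bin from 40 to 50 Mb of chromosome 9 ranked 5 of 215 bins with at least 20 tested genes (9 of 60 genes, 15.0%, *Ncam1* included). The next bin, from 50 to 60 Mb, which holds *Plet1os*, *Pts*, *Dixdc1* and *Cryab*, ranked 53 (6 of 87 genes, 6.90%). The 4 bins ranked above the first, on chromosomes 15, 19, 4 and 16, had shares of 17.9%, 16.3%, 16.2% and 15.4%. None of those 4 bins held a gene that passed the adjustment, and the genes that passed lay in 2 of the 215 bins, from 40 to 50 and from 50 to 60 Mb of chromosome 9. The strain of origin of the sequence that flanks the targeted allele is not given, and loss of NCAM-1 and linked sequence differences between the KO and WT chromosomes cannot be told apart in these libraries.

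**Figure D2:**
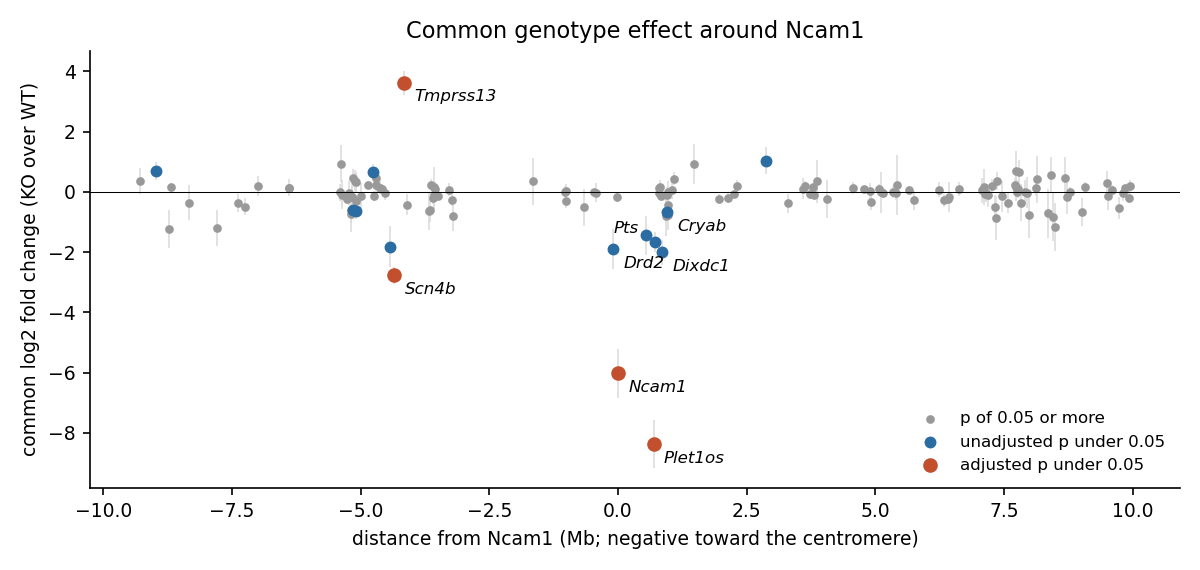
Common log2 fold change (KO over WT, vertical axis) of *Ncam1* and the 146 genes tested within 10 Mb of it, against the distance in Mb on the horizontal axis. Bars are standard errors calculated back from the F statistic of the test, and colours mark unadjusted and adjusted p-values under 0.05. *Plet1os* and *Scn4b* lie below and *Tmprss13* above a field of genes near 0.

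Each cell type was then tested alone. In PCs, 0 genes passed the adjustment in edgeR's quasi-likelihood test (0%), with 349 (3.08%) at an unadjusted p-value under 0.05, and DESeq2 called 7 and limma voom with quality weights 2. Without WT PC replicate 2, PCs gave 4 genes, *Ncam1*, *Scn4b*, *Plet1os* and *Rps13-ps1*. In VMs, 5 genes passed (0.0442%), namely *Scn4b*, *Plet1os*, *Tmprss13*, *Dixdc1* and *Nedd1*, with 598 (5.28%) at an unadjusted p-value under 0.05. Leaving out VM libraries in turn gave 3 genes without KO VM replicate 1 or KO VM replicate 3 and 11 without WT VM replicate 1. The difference between the 2 genotype effects passed for 0 genes in edgeR's quasi-likelihood test and 0 in DESeq2, with 329 (2.91%) at an unadjusted p-value under 0.05 in edgeR. At an unadjusted p-value under 0.05 in both cell types, 37 genes (0.327%) had the same sign and 7 (0.0618%) opposite signs.

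Across the 11323 genes, the log2 fold changes in PCs and in VMs were weakly related (Pearson's r 0.14, Spearman's rho 0.06), and 52.1% of the genes had the same sign. Across the 146 genes within 10 Mb of *Ncam1* Pearson's r was 0.69 with a Spearman's rho of 0.25, the lower rank correlation standing beside a few large changes. These values are across genes, which are not independent replicates, and the libraries of a number may share a heart. Genes without overlap between KO and WT in PCs, and again in VMs, in the same direction numbered 70 (0.618%; 31 lower and 39 higher), and 38 (0.336%) were apart in opposite directions. Groups did not overlap in PCs for 1075 genes (9.49%) and in VMs for 1103 (9.74%). All 6 KO libraries lay on one side of all 6 WT libraries for 28 genes (0.247%), 15 lower and 13 higher. Under random genotype labels a share of 0.1 would be apart within a cell type and 0.005 in both in the same direction. The shares seen within each cell type and in both were near these values. A lack of overlap, as given for single genes here, is therefore a description and by itself no result about a gene.

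**Figure D3:**
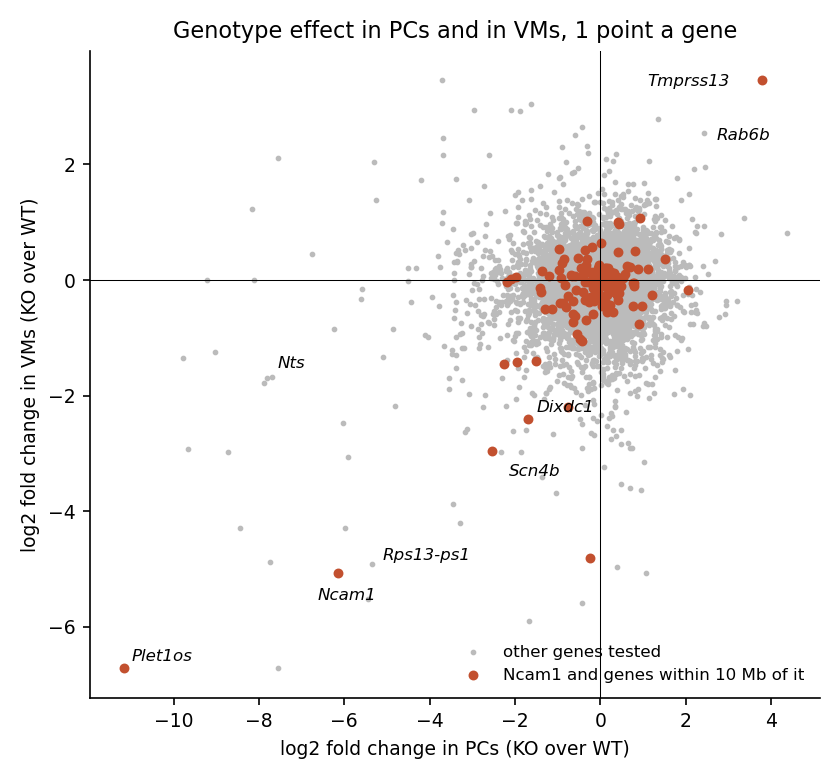
Log2 fold change (KO over WT) in PCs on the horizontal axis and in VMs on the vertical axis for the 11323 genes tested, with *Ncam1* and genes within 10 Mb of it in red. Most genes spread around 0 without a common direction, and *Plet1os*, *Ncam1* and *Scn4b* at the lower left and *Tmprss13* at the upper right were displaced in both cell types.

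Outside chromosome 9, no gene passed the adjustment in the common fit, and the genes with the smallest p-values are given as values. Some passed in alternative fits of the common effect, *Nedd1* in 7 of 30, *Gm13212* in 5 and *Rplp0* in 3. DESeq2 and limma voom with quality weights each called these genes. *Nedd1*, which recruits gamma-tubulin to centrosomes, ranged from 28.1 to 88.4 (median 54.6) in KO and from 99.5 to 207 (median 151) in WT, with no overlap (log2 fold change -1.40, SE 0.26, adjusted p = 0.117 in the common fit and 0.0383 in VMs alone, from edgeR's quasi-likelihood test). Its VM call was lost in 1 fit of all 12 libraries and without KO VM replicate 1 or 3 or WT VM replicate 2 or 3. *Rab6b*, a small GTPase of the Golgi, had 10.5, 51.8 and 58.8 in KO PCs and 24.04, 26.97 and 40.5 in KO VMs, against 17.9, 0 and 2.31 in WT PCs and 4.69, 6.59 and 4.44 in WT VMs, with VMs fully apart and PCs overlapping. It lies on chromosome 9 but 53.3 Mb from *Ncam1*, and its log2 fold change was 2.45 (SE 0.56, adjusted p = 0.322 in edgeR's quasi-likelihood test).

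Among the other genes of small p-value, *Gm13212* (62.2 to 92.6 in KO, 22.6 to 44.5 in WT) and *Zfp984* (13.4 to 45.7 in KO, 1.95 to 11.0 in WT) lie together near the end of chromosome 4. Both were higher in all 6 KO libraries than in any WT library, and both belong to a cluster of similar zinc finger genes between which reads may be split, so that their counts are uncertain. *Rplp0*, a protein of the ribosomal stalk, ranged from 303 to 467 in KO and from 499 to 815 in WT, with no overlap (log2 fold change -0.75, SE 0.16). *Klhl38*, a kelch-like protein of muscle, ranged from 129 to 169 in KO and from 43.2 to 124 in WT. *Mgp*, an inhibitor of calcification, had 185, 145 and 95.6 against 316, 304 and 240 in PCs and 18.4, 35.95 and 40.5 against 91.0, 42.4 and 45.9 in VMs, KO first, and the groups did not overlap within either cell type. *Igf1*, named after its values were seen, ranged from 5.66 to 27.8 in KO and from 28.1 to 87.8 in WT, with no overlap.

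**Figure D4:**
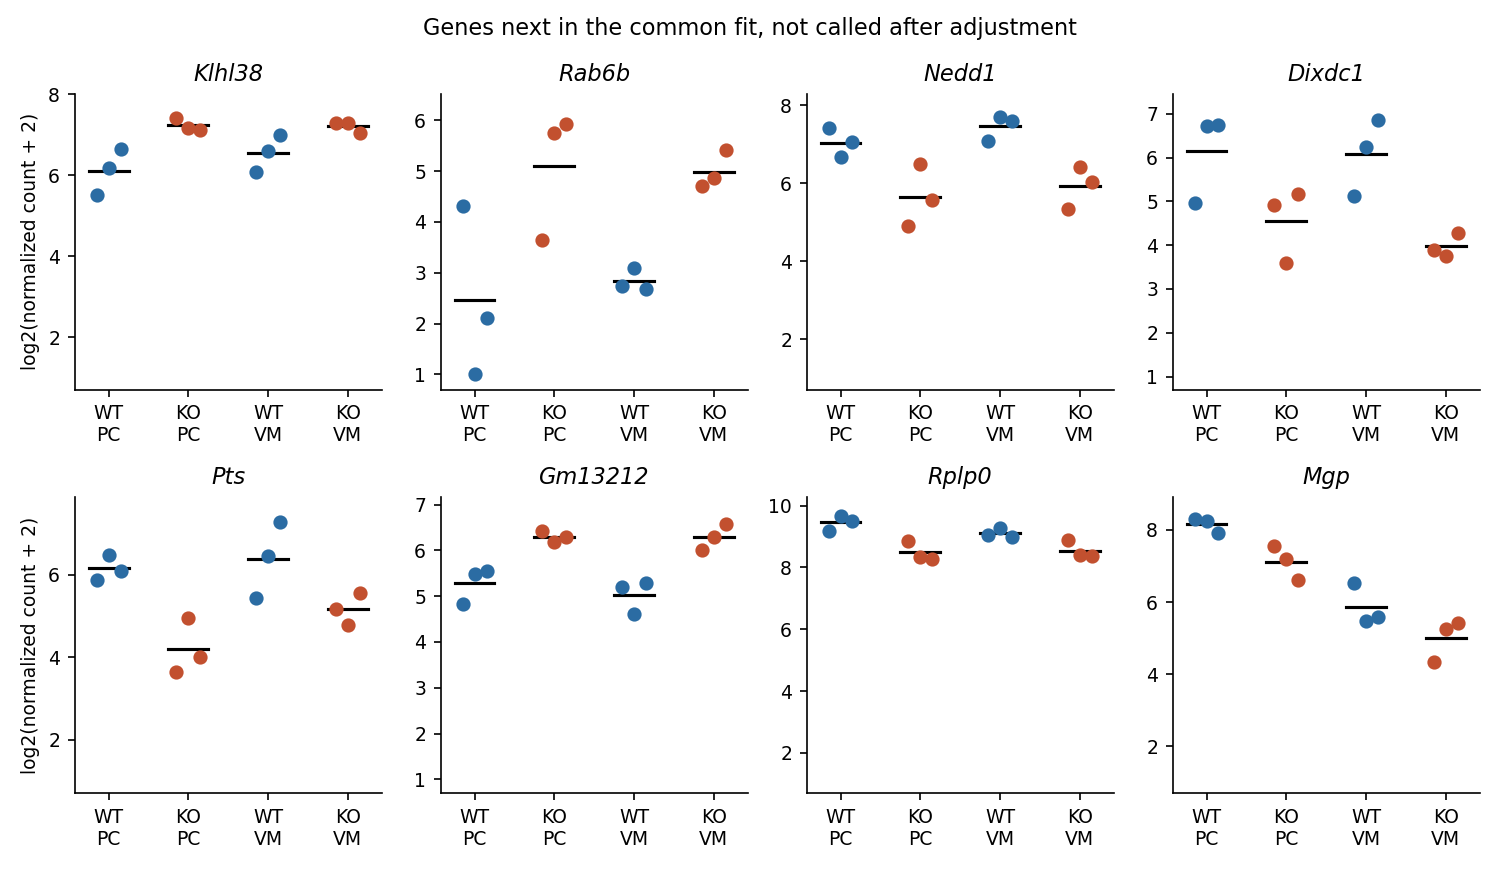
Values of 8 genes picked from those of small p-value in the common fit, as log2(normalized count + 2) on the vertical axis, by group on the horizontal axis. The choice leaves out some genes of smaller p-value. Points are the 3 libraries of a group, black lines are group means, blue is WT and red is KO. *Nedd1*, *Gm13212*, *Rplp0* and *Klhl38* separate all KO from all WT libraries, and none of the 8 passed the adjustment in that fit.

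Among genes of small p-value were some whose WT libraries differed among themselves by number, alike in PCs and VMs. *Rps13-ps1*, a processed pseudogene of a ribosomal protein, had 80.6 and 93.6 normalized counts in WT PC replicates 1 and 3 and 128 and 110 in WT VM replicates 1 and 3, but 3.90 and 1.88 in replicates 2 of both. Its KO libraries had 4.63 or less, so the KO libraries resembled WT number 2. *Bmp10*, a ligand of atrial myocytes, was found in WT number 1 only, at 61.5 in PCs and 49.7 in VMs, and was at 1.28 or less in the other 10 libraries. *Hbb-bs*, an adult beta-globin, had 469 and 2873 in WT PC replicates 1 and 2 and 117 and 58.4 in WT VM replicates 1 and 2, but 0.578 and 2.96 in replicates 3, with 12.03 or less in KO. The clock genes *Arntl* and *Ciart*, chosen after their values were seen, set WT number 3 apart in the same way, *Arntl* at 4.05 and 8.14 against 70.3 to 183 in the other WT libraries and *Ciart* at 39.3 and 49.6 against 6.56 or less. Of 27 genes in which 1 WT VM library stood at least 4-fold apart from both others and 1 WT PC library did too, 12 named the same number and direction, and at 8-fold 3 of 3 did. In KO the first count was 6 of 19. *Nts*, *Oip5* and *Tifa* instead rested on WT PC replicate 2, with 314, 1207 and 79.97 there against at most 1.74, 9.59 and 10.0 in any other library.

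**Figure D5:**
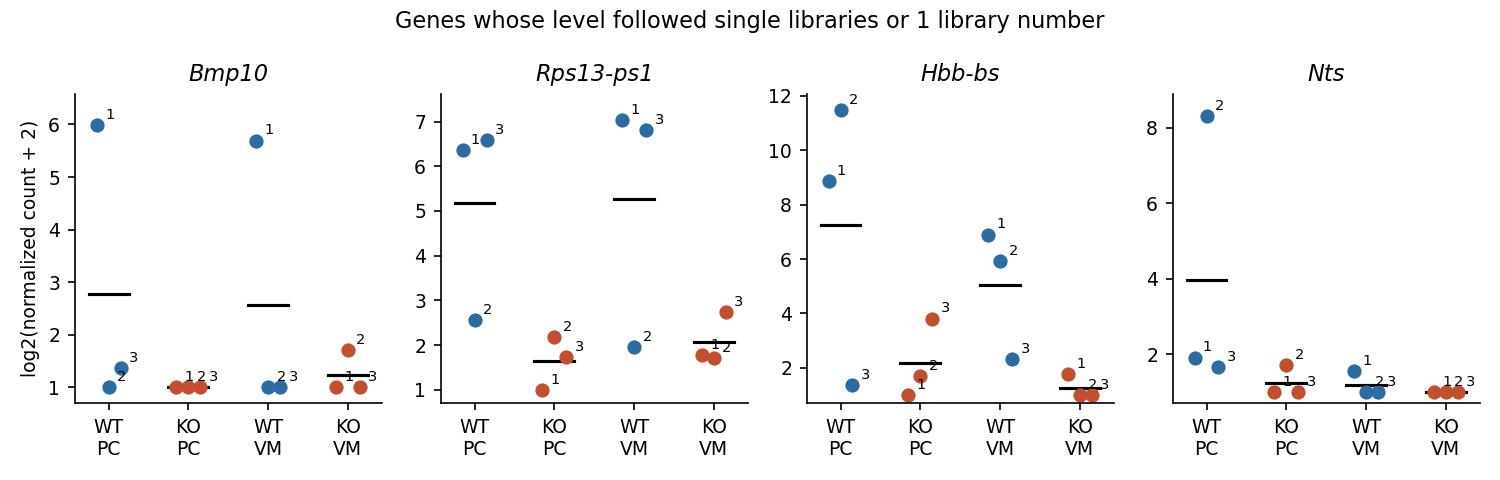
Values of *Bmp10*, *Rps13-ps1*, *Hbb-bs* and *Nts* as log2(normalized count + 2) on the vertical axis, by group on the horizontal axis; points are libraries with their replicate number, black lines are group means, blue is WT and red is KO. In the first 3 genes the WT PC and WT VM library of 1 number stand apart together, and *Nts* is high in WT PC replicate 2 alone.

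Several genes below fall outside the naming rule and were chosen after their values were seen. Gene lists are described by the number of members with an unadjusted p-value under 0.05, beside 3.13% lower and 1.83% higher over all genes tested, since outside *Ncam1* and *Scn4b* no list member passed the adjustment. Of 9 sodium channel subunits tested, 2 were lower, *Scn4b* and the intracellular channel partner *Fgf12* (log2 fold change -1.48, SE 0.56), and 0 were higher. In VMs *Fgf12* was at the floor in KO and averaged 3.55 in WT, below a floor level of 3.86, so that its common value is a PC value. *Scn10a* was seen mainly in PCs (28.1, 22.7 and 93.6 in KO, 88.5, 101 and 173 in WT). Of 24 potassium channel genes 1 was lower and 2 were higher, among them *Kcnj3*, a subunit of the muscarinic potassium channel, which ranged from 577 to 960 in KO and from 408 to 620 in WT (log2 fold change 0.49, SE 0.13). Of 29 genes of connexins and the intercalated disc, 1 was higher, *Cdh2*, the N-cadherin of the disc, with a log2 fold change of 0.26 (SE 0.10). The ventricular connexin *Gja1* had 0.16 (SE 0.12).

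Of 41 genes of calcium channels and calcium handling, 4 were lower and 5 higher, and the median log2 fold change was -0.02. The 5 higher were *Atp2a2*, the calcium pump of the sarcoplasmic reticulum, *Ryr2*, its release channel, *Casq2*, its calcium buffer, *Cacna1c*, the L-type channel, and *S100a1*, a calcium sensor. *Atp2a2* had 55958, 54167 and 52690 in KO PCs against 51617, 38787 and 35446 in WT PCs, and 81305, 70350 and 69971 in KO VMs against 55755, 56280 and 54708 in WT VMs. KO was above WT within each cell type, by a log2 fold change of 0.37 in PCs and 0.42 in VMs (common 0.40, SE 0.11, adjusted p = 0.761 in edgeR's quasi-likelihood test). The gene passed in 1 of 30 alternative fits, limma voom with quality weights (adjusted p = 0.00563). *Atp2a2* overlaps other annotated transcripts with up to 583 counts in a library. *Ryr2* had a common log2 fold change of 0.51 (SE 0.16) and *Casq2* of 0.31 (SE 0.12). The 4 lower were *Pcp4*, *Cacnb4*, *Cacng6* and *Camk2d*, and *Pcp4*, a calmodulin regulator, had no count in any VM library, so that its common value is a PC value. Of 45 genes of fatty acid uptake and oxidation 0 were lower and 3 higher (*Acadvl*, *Hadhb* and *Acsl1*, log2 fold changes 0.26 to 0.34), and of 41 of glycolysis and glycogen 0 were lower and 4 higher (*Pygb*, *Hk2*, *Slc2a4* and *Phkb*, 0.32 to 0.50). WT PC replicate 2 had the lowest value of all 12 libraries for *Acsl1*, *Hk2* and *Slc2a4*. Among WT libraries it was also lowest for *Pygb*, *Phkb* and *Ryr2*. The counts of the fatty acid and glycolysis lists without that library are not given.

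Of 35 genes marking Purkinje cells and the conduction system, 8 were lower and 1 higher, and the median log2 fold change was -0.72. The median was -0.93 in PCs and 0.00 in VMs, which hold little of these transcripts. *Slit2*, an axon guidance ligand, had 77.3, 105 and 432 in KO PCs against 284, 737 and 1438 in WT PCs, and 36.8, 12.8 and 27.8 in KO VMs against 22.5, 26.4 and 25.1 in WT VMs. *Etv1*, a transcription factor of fast-conducting myocytes, had 105, 55.6 and 258 in KO PCs against 156, 429 and 453 in WT PCs, and 25.5, 24.4 and 19.7 in KO VMs against 33.8, 19.8 and 31.8 in WT VMs. For both genes the difference was seen in PCs, with 1 KO library inside the WT range, and the VM groups overlapped. The summed normalized count of the 39 listed genes was 1577, 1381 and 3385 in KO PCs and 2489.9, 4986 and 5725 in WT PCs, against 683 to 778 in all VM libraries. The lower sums were those of KO PC replicates 1 and 2, the libraries with little *Cntn2*, and their part in the list's values was not tested.

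Other cell types were measured by marker lists. Of 12 leukocyte markers 3 were lower (*Cd74*, *Mrc1* and *H2-Aa*) and 0 higher, with a median of -0.73. *H2-Aa* was at most 7.03 in any KO library, near the mean of 5 needed for testing, and highest in WT PC replicate 2, at 25.4. It was tested in 27 alternative fits and not in all, so that its direction is no firm result. The summed count of the list ran from 393 to 438 in KO PCs and from 447 to 1075 in WT PCs. In VMs it ran from 19.8 to 123 in KO and from 104 to 221 in WT. Single libraries made the gaps, since WT PC replicate 2 held the 1075 with 447 and 452 in the other WT PCs, and KO VM replicate 1 held the 19.8 with 121 and 123 in the other KO VMs. Of 8 listed erythroid markers only 4 globin genes reached the level needed for testing, through WT libraries in which they were high, and their direction is therefore no result. *Alas2*, an enzyme of haem synthesis in red cells below that level, ranged from 0 to 9.26 in KO and from 0 to 8.44 in WT. The list's sum was 14.7 or less in every KO library and in WT 9.25 and 8.14 for the replicates 3 and between 77.2 and 3166 for the other WT libraries. Of 8 atrial markers 2 were lower, *Bmp10* and *Stard10*. *Bmp10* reached the level needed for testing only through WT number 1, so that its direction is likewise no result. Of 13 fibroblast markers 0 were lower or higher (median -0.41), and of 16 endothelial markers 1 was lower (*Egfl7*). The endothelial median was -0.78 in VMs and 0.10 in PCs, and the summed endothelial count was 187 in KO VM replicate 1 against 746 and 636 in the other KO VMs and 608 to 1158 in WT VMs. KO VM replicate 1 was also lowest for fibroblast markers, at 192 against 488 and 364 in the other KO VMs. The glial marker *Sox10* had no count in any library. The part of blood and non-myocyte RNA in the values of other genes was not tested.

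Several lists had other counts without WT PC replicate 2. Of 79 cytosolic ribosomal protein genes 8 were lower and 0 higher (median -0.22, from -0.52 in PCs and 0.04 in VMs), and of 80 nuclear genes of the respiratory chain 3 were lower and 3 higher (median -0.12). Without WT PC replicate 2 the ribosomal list had 5 lower and 1 higher (median -0.000309) and the respiratory chain 1 lower and 10 higher (median 0.10), so that the median of the latter changed sign. Over all genes the split at an unadjusted p-value under 0.05 went from 354 lower and 207 higher to 345 lower and 329 higher. The sodium channel list had 3 lower and 0 higher, the calcium list 3 lower and 5 higher, the Purkinje list 9 lower and 2 higher (median -0.33), and the genes within 5 Mb of *Ncam1* 9 lower and 3 higher in that fit. Of 48 axon guidance genes 2 were lower and 2 higher in the fit of all libraries, of 57 sarcomere genes 3 and 2, of 51 extracellular matrix genes 3 and 1, and of 31 heat shock genes and chaperones 3 (*Cryab*, *Hspb8* and *Hspb1*) and 0. Of 15 listed genes of the mitochondrial genome, 25 clock genes and 33 interferon genes, 0, 1 and 1 were lower and 0, 1 and 1 higher. Of all 23 genes tested on the mitochondrial genome, 3 (13.0%) had an unadjusted p-value under 0.05, *mt-Tl1*, *mt-Tm* and *mt-Tf*. The lower interferon gene, *H2-T23*, was at most 6.31 in KO and highest in WT PC replicate 2, at 140. In VMs it was at the floor in KO and averaged 3.35 in WT. Of 12 genes in a list of NCAM-1 itself, its partners and polysialyltransferases, 2 were lower (*Ncam1* and *Alcam*). *Ncam1* is the deleted gene, so that its fall follows from the design. *Alcam* was at the floor in KO VMs and averaged 2.80 in WT VMs, so that its common value is a PC value. Of 24 genes of the MAPK and ETV1 pathway 1 was lower and 1 higher, of 26 ventricular myocyte markers 3 and 3, and of 22 fetal and stress genes 3 and 1.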

How the data were processed

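RNA-seq was performed on low-input amplified total RNA from PCs and VMs sorted out of WT and *Ncam-1* null hearts. The authors aligned 50 bp read pairs to mm10 with STAR and counted them with HTSeq, and deposited raw counts per gene, 1 table a library. The labels and processing notes used here give no versions for these. The closing HTSeq summary lines were left out of library sizes and tests (39.98% to 73.6% of read pairs). Symbols and positions came from GENCODE M21, which lacked 382 of 48526 identifiers.

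Counts were normalized by TMM, and genes whose normalized counts averaged above 5 across 12 libraries were tested by edgeR's quasi-likelihood test (edgeR 4.0.16, R 4.3.3) with Benjamini-Hochberg adjustment at 0.05. The common effect came from cell type plus genotype, the PC and VM effects from separate fits, and their difference from an interaction term. Each SE is the absolute log2 fold change divided by the square root of the F statistic of the quasi-likelihood test. Single genes were also tested by exact permutation within cell type on log2(normalized count + 2). Floors of 3 counts a library cover counting error only. The fit was tested on simulated data. Alternatives used DESeq2 1.42.0, limma 3.58.1, other filters and scalings, a replicate block and left-out libraries. Named genes were *Ncam1*, those passing the adjustment, the next by p-value up to 24, and up to 4 a list with an unadjusted p-value under 0.05 and the same sign in both cell types, with *Cntn2*, *Gja5*, *Myl2*, *Myh6* and *Tnnt2*. The comparison, its genes and its lists were chosen with earlier results of these data known. Results for some genes are not reported here.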

Additional observations from a re-analysis of the deposited data

Results flagged for a closer look

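Among 46 groups of 6 libraries examined for leading genes, 8 had 1 library far from the other 5 by Dixon's ratio of gap to range, above the 95% critical value. In samples of 1 normal population chance alone marks about 1 group in 20. That rate need not hold here, since each group mixes 3 PC and 3 VM libraries. WT PC replicate 2 was the distant library in 3 of them, highest for *Plet1os* (ratio 0.752), *Oip5* (0.726) and *Nts* (0.876). In KO, replicate 3 of PCs was highest for *Hbb-bs* (0.725) and *Hbb-bt* (1.0), replicate 2 of PCs for *Nts* (1.0) and *Tifa* (1.0), and replicate 3 of VMs for *Plet1os* (1.0). The 4 ratios of 1.0 come from groups in which the other 5 libraries were at 0, so that a few counts in 1 library set them.

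For 3 genes, KO and WT did not overlap in either cell type and differed in opposite directions, each with an unadjusted p-value under 0.05. They were picked by these same values. Of the 11323 genes tested, 38 (0.336%) were apart in opposite directions, and 7 (0.0618%) had opposite signs at that p-value in both cell types. *Hopx*, a homeodomain protein of cardiomyocytes, had a PC minus VM difference of the genotype effect of -1.11 on the log2 scale (SE 0.30), from -0.80 in PCs and 0.32 in VMs. *Aldh2*, a mitochondrial aldehyde dehydrogenase, had -1.06 (SE 0.36), from -0.70 and 0.37. *Enpep*, an aminopeptidase of angiotensin, had -2.40 (SE 0.62), from -1.26 and 1.14. None passed the interaction test (adjusted p = 0.998 for each in edgeR's quasi-likelihood test). WT PC replicate 2 was the highest WT PC library for all 3 genes, and without it the PC effect was -0.46 for *Hopx*, -0.31 for *Aldh2* (SE 0.21) and -0.86 for *Enpep*, an alternative chosen after seeing the data. The unadjusted PC p-value of *Aldh2* was then 0.153 in edgeR's quasi-likelihood test.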

How the results depend on the processing

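The count of 4 genes for the common effect was 15 with DESeq2, 130 with no filter on low counts (114 lower and 16 higher of 23366), 10 with limma voom and quality weights, and 2 with a replicate block as an estimated correlation (0.0974) in limma voom. With number as a term for the replicate block it was 5, and with PC and VM counts of a number summed 4. Leaving out 1 library gave 3 to 11 (11 without WT PC replicate 2). Leaving out PC and VM of 1 number, and the globin and atrial genes (4 genes called), were alternatives chosen after seeing the data, and the former gave 3 to 20 (20 without WT number 2). In PCs, 0 became 7 with DESeq2, 2 with limma voom, 1 with the replicate block, 3 in 1 fit of 12 libraries and 0 to 4 with a library left out. In VMs, 5 became 10 with DESeq2, 1 in the fit of 12 libraries, 7 with the replicate block and 3 to 11 with a library left out. The interaction count was 0 in every fit run. The cause of these differences was not tested. *Myl2*, at -0.16 in the fit of all libraries, ranged from -0.25 to 0.03 with 1 library left out (0.031 without WT PC replicate 2) and was at 0.055 without WT number 2. Same-number PC and VM libraries correlated at 0.207, 0.0813 and 0.150 in WT and -0.0096, 0.121 and 0.0185 in KO over 8100 genes, and 6 of 6 WT libraries but 3 of 6 KO libraries correlated best with their own number, which is a hint from the data and not the design. Thinning all libraries to the smallest gave 5 genes.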
